A study of Mus musculus with 80 samples.

Results

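Lysosomal enzymes and membrane proteins were followed through a mouse model of mesial temporal lobe epilepsy, in which kainic acid is placed in 1 hippocampus. The set holds 42 listed genes: 11 proteases, 12 glycosidases and sulfatases, 6 proteins of lipid breakdown and cholesterol export, 1 phosphatase, 2 precursors of small cofactor proteins and 10 membrane proteins. A gene was represented by its brightest probe among those detected above background (detection p under 0.05) on at least 4 arrays. By this rule 39 of the 42 were tested, among 11381 genes in all. Npc1, Gla and Cd68 had no probe.

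The arrays measured messenger RNA of whole hippocampus on Illumina mouse BeadChips, 80 in all, from 40 C57Bl/6J mice, all male and 12 weeks old at surgery. KA animals received 50 nl of 20 mM kainic acid in saline in the right dorsal hippocampus, and sham animals received the same volume of saline alone. Kainic acid is an agonist of kainate-type glutamate receptors that causes seizures and loss of neurons near the injection. From each animal the injected (ipsilateral, IL) and the opposite (contralateral, CL) hippocampus gave 1 array each, 7, 28 or 60 days after surgery. There were 8, 9 and 9 KA animals and 4, 5 and 5 sham animals at these days. No group was unoperated, so both treatments share the surgery. Levels are log2 intensities after background correction and quantile normalization, differences between groups are the log2 differences estimated by limma (± SE), and a gene was called at an adjusted p under 0.05 over all 11381 genes.

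Lysosomes are acidic organelles that break down proteins, glycans, lipids and nucleic acids delivered by endocytosis, phagocytosis and autophagy. Their enzymes are made in the secretory pathway and mostly sorted by mannose 6-phosphate receptors, and their membrane proteins shield the membrane, pump protons and export the products. All cells of the brain have lysosomes, while several of the proteases and the membrane protein LAPTM5 are most abundant in microglia and macrophages, which engulf dead cells. In humans, loss of many of these genes causes lysosomal storage disease with loss of neurons.

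Detection ranged from 46.8% to 66.9% of the probes on an array, and 30 of the 39 genes were detected on all 80 arrays. Ctsl and Sgsh were the dimmest members, detected on 13 and 5 arrays, so a change of either could hardly be measured. Both arrays of 1 KA animal of day 7, IL replicate 8 and CL replicate 7, had the lowest mean level of the 14 tested microglia markers in their groups, and the counts of genes called in comparisons that use them are also given without that animal. On the 2 slides with the lowest detection, 3 arrays of day 28 stood apart in 8 tested neuron markers: IL sham replicate 5 at -1.54 relative to all arrays, where the other 4 arrays of its group lay between 0.01 and 0.20, CL KA replicate 4 at -1.98 and CL sham replicate 3 at -2.91. IL sham replicate 5 and CL sham replicate 3 came from 1 animal, so slide and animal cannot be told apart for these. Of 10 markers of hippocampal principal cells, 7 were detected and tested. The filter kept 11381 of 14199 genes, so this number cannot check the labelled tissue. Dsp, Calb1 and Neurod6 were not among the genes tested. Since whole tissue was measured, more cells of a type and more RNA per cell cannot be told apart in any difference below.

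The first comparison asked how the hippocampus that received kainic acid differed from one that received saline, 7 days later. On the injected side 22 of the 39 lysosomal genes rose and 0 fell, where 7.45% of all genes tested were called higher and 3.03% lower. The median difference of the 39 genes was 0.55, against -0.04 over all genes, and 35 of 39 differences were positive, where 42.5% of all genes had a positive one. Called members were 9 of 11 proteases, 5 of 11 tested glycosidases and sulfatases, 2 of 5 tested lipid proteins, 0 of 1 phosphatase, 1 of 2 cofactor precursors and 5 of 9 tested membrane proteins. Within the 3 slides that held both groups the medians of the 39 genes were 0.73, 0.53 and 0.43, with the direction of the called members kept in 22, 22 and 21 of 22. Without the KA animal named above 23 of 39 rose, where 8.73% of all genes were then called higher.

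The 6 members with the largest differences were 3 cathepsins, a glycosidase, a cofactor precursor and a membrane protein. Ctsz encodes cathepsin Z, a carboxypeptidase. Its level on the 8 IL KA arrays of day 7 ran from 7.57 to 10.02 (median 9.40), against 6.84, 7.08, 7.11 and 7.47 on the 4 IL sham arrays. All 8 KA arrays lay above every sham array, the lowest of them, replicate 8, only just, and the difference was 2.17 ± 0.31 (adjusted p = 9.37e-08). Ctsh encodes cathepsin H, an aminopeptidase. It ran from 8.83 to 11.20 (median 10.77) on the KA arrays and stood at 8.03, 8.57, 8.84 and 8.85 on the sham arrays. Replicate 8 fell among the sham arrays and the other 7 KA arrays were at least 1 log2 unit above them. The difference was 2.04 ± 0.26 (adjusted p = 1.3e-08). Ctss encodes cathepsin S, a protease that stays active at neutral pH and trims the invariant chain of class II antigen presentation. Its KA arrays ran from 6.68 to 8.10 (median 7.33) and its sham arrays stood at 5.24, 5.28, 5.43 and 6.45. The groups did not overlap, although 1 sham array, replicate 2, was near the lowest KA array. The difference of Ctss was 1.80 ± 0.33 (adjusted p = 2.18e-05).

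The other proteases that rose differed by less. Ctsc, the dipeptidyl peptidase that activates serine proteases of immune cell granules, ran from 7.87 to 10.11 (median 9.94) on the KA arrays, against 7.89, 7.93, 8.03 and 8.23 on the sham arrays. Its 7 KA arrays other than replicate 8 lay above every sham array, and it rose by 1.62 ± 0.24 (adjusted p = 1.93e-07). Lgmn encodes legumain, which cuts after asparagine and matures several cathepsins. Lgmn ran from 10.90 to 12.59 (median 12.21) on the KA arrays, against 10.83, 10.89, 10.95 and 11.01 on the sham arrays, and 7 of 8 KA arrays lay above every sham array. Its difference was 1.22 ± 0.18. Ctsb, an abundant cysteine protease, had a difference of 1.19 ± 0.30, the aspartic protease gene Ctsd one of 0.79 ± 0.22, and Tpp1, a tripeptidyl peptidase whose loss causes a neuronal ceroid lipofuscinosis in children, one of 0.55 ± 0.17 (adjusted p = 0.00363, 0.00794 and 0.0209). For Ctsb all 8 KA arrays lay above every sham array, at 12.63 to 13.50 (median 13.23) against 11.66, 11.72, 11.78 and 12.60. The call of Ctsd was lost without sham replicate 1 (difference 0.58), and that of Tpp1 when 1 of 4 arrays was left out (0.50 to 0.54). Ctsa encodes the carboxypeptidase that protects beta-galactosidase and sialidase in 1 complex. It was called at 0.71 ± 0.23 (adjusted p = 0.0357), but its 3 other kept probes gave -0.19, -0.16 and 0.23, and the call was lost under 11 of 24 alternative settings. The cysteine proteases Ctsf and Ctsl were not called, with differences of 0.02 (95% confidence interval -0.22 to 0.25) and 0.26 (-0.04 to 0.56).

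Among the enzymes that cut sugars, Gusb stood out. Gusb encodes beta-glucuronidase, which removes glucuronic acid from glycosaminoglycans. Its KA arrays ran from 8.56 to 11.46 (median 10.81), against 8.36, 8.39, 8.51 and 8.55 on the sham arrays. All 8 KA arrays lay above every sham array, replicate 8 by a margin smaller than the sham range. The difference was 2.19 ± 0.27 (adjusted p = 4.36e-09), and 2 further kept probes of Gusb gave 1.97 and 1.22. Hexa, the alpha subunit of the hexosaminidase that degrades GM2 ganglioside, rose by 1.16 ± 0.19, and Man2b1, the lysosomal alpha-mannosidase, by 1.03 ± 0.26 (adjusted p = 4.08e-06 and 0.00364). The KA arrays of Hexa ran from 9.18 to 11.02 (median 10.54), against 9.06, 9.33, 9.33 and 9.38 on the sham arrays, and for both genes 7 of 8 KA arrays lay above every sham array. Smaller rises were those of Naglu, which acts on heparan sulfate (0.80 ± 0.25, adjusted p = 0.0226), and Glb1, the beta-galactosidase used as a senescence stain (0.40 ± 0.13, adjusted p = 0.0354). The call of Glb1 was lost under 9 of 24 settings, 7 of them with 1 array left out, and that of Naglu without sham replicate 1 or 4 or KA replicate 7 (0.69 to 0.73). Not called were the beta-mannosidase gene Manba at 0.06 (-0.22 to 0.34), the sialidase gene Neu1 at -0.01 (-0.27 to 0.26) and Gaa, which breaks down glycogen, at -0.04 (-0.45 to 0.37). The sulfatases were not called either: Arsb had 0.15 (-0.57 to 0.87), Sgsh 0.22 (-0.06 to 0.49) and Ids -0.26 (-0.90 to 0.38). The 2 other kept probes of Ids, detected on 43 and 33 arrays, gave -0.28 and -0.64. The unadjusted limma p of the latter was 0.00097. The intervals of Manba and Neu1 leave out a rise of the size of any of the 5 called enzymes of this role, while those of Arsb and Ids are wide.

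Of the proteins that handle lipids, Npc2, the soluble carrier that hands cholesterol to the membrane protein NPC1, rose by 1.41 ± 0.37 (adjusted p = 0.00482), and Asah1, acid ceramidase, by 0.50 ± 0.14 (adjusted p = 0.0142). Npc2 ran from 7.24 to 8.89 (median 7.79) on KA arrays, against 6.03, 6.26, 6.76 and 7.34 on sham arrays, with 7 of 8 above every sham array. The call of Asah1 was lost without sham replicate 3 or 4 (0.45 in both cases), with median scaling and with the mean of its kept probes. Its other kept probe gave 0.27. The acid lipase gene Lipa, the palmitoyl-protein thioesterase gene Ppt1 and the acid sphingomyelinase gene Smpd1 were not called, at 0.40, 0.29 and 0.13. The 2 other kept probes of Smpd1 had the opposite sign, -0.27 and -0.29. Acp2, the lysosomal acid phosphatase, had 0.31 and was not called.

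The cofactor precursors parted. Grn encodes progranulin, which is cut into granulins in the lysosome and whose loss causes frontotemporal dementia or ceroid lipofuscinosis in people. Its KA arrays ran from 9.86 to 12.60 (median 12.11), against 9.69, 9.92, 10.01 and 10.09 on the sham arrays. The 7 KA arrays other than replicate 8 lay more than 1 log2 unit above every sham array. The difference of Grn was 1.95 ± 0.22 (adjusted p = 1.15e-09). Psap encodes prosaposin, the precursor of the saposins that present sphingolipids to their enzymes. It had 0.03 with a confidence interval of -0.14 to 0.19, the narrowest of the set. Its levels were 14.12 ± 0.06 on KA and 14.09 ± 0.04 on sham arrays (SD, n = 8 and 4).

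Of the membrane proteins, Laptm5, made mainly in blood-derived cells and microglia, ran from 11.72 to 13.56 (median 13.14) on the KA arrays, against 10.997, 11.19, 11.28 and 11.49 on the sham arrays. All 8 KA arrays lay above every sham array. Laptm5 rose by 1.77 ± 0.23 (adjusted p = 1.9e-08), the tetraspanin gene Cd63 by 1.21 ± 0.19 and Lamp2, a glycoprotein of the membrane that also serves chaperone-mediated autophagy, by 1.11 ± 0.18 (adjusted p = 1.57e-06 and 1.21e-06). Lamp1, the other main glycoprotein, had a smaller rise of 0.64 ± 0.20 (adjusted p = 0.0222), lost without KA replicate 1 or sham replicate 2 or 4 (0.59 to 0.60). Lamp2 ran from 10.76 to 11.78 (median 11.33) on the KA arrays, against 10.09, 10.12, 10.20 and 10.51 on the sham arrays, with no overlap. Scarb2 encodes LIMP-2, the receptor that carries beta-glucocerebrosidase to lysosomes. It ran from 7.74 to 8.75 (median 8.30) on KA arrays, against 7.22, 7.30, 7.30 and 7.73 on sham arrays, with no overlap and a difference of 0.89 ± 0.16 (adjusted p = 2.34e-05). Cln3, the membrane protein lost in juvenile ceroid lipofuscinosis, the cystine exporter gene Ctns and Laptm4a were not called, at 0.38, 0.17 and 0.05. Mcoln1, the calcium channel of the lysosomal membrane, had the lowest value of the set, -0.41 ± 0.19, and was not called (adjusted p = 0.193). Its KA arrays ran from 6.32 to 6.83 (median 6.45), against 6.77, 6.95, 6.99 and 6.99 on the sham arrays.

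**Figure D1:**
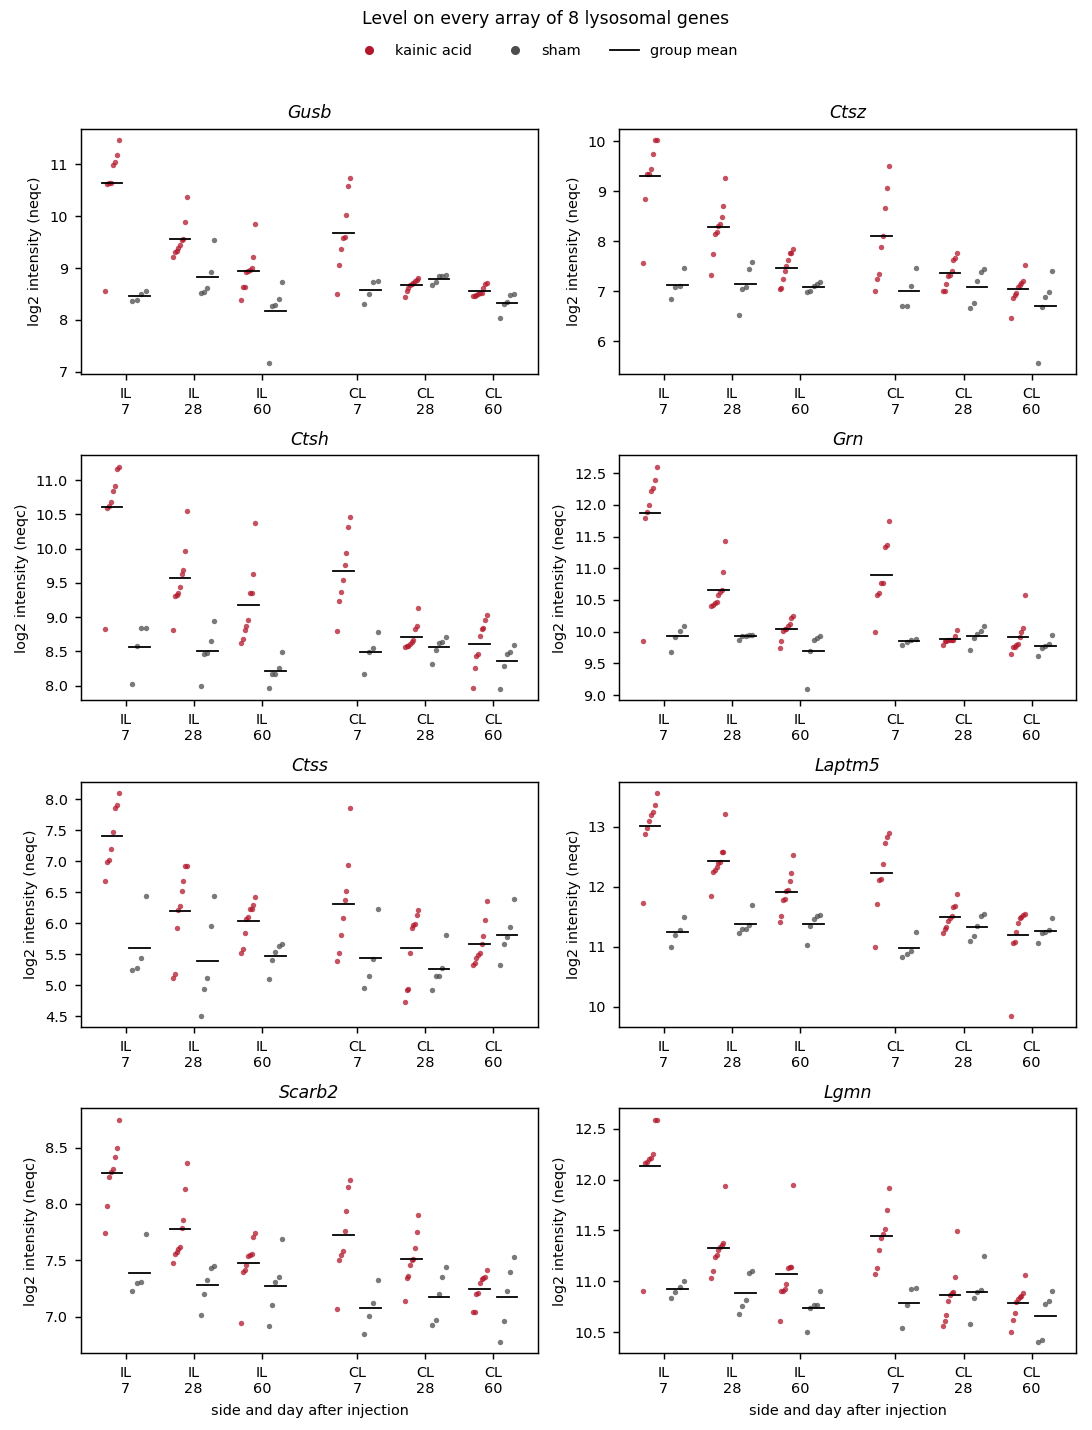
Log2 intensity of 8 members on every array, by side and day, with kainic acid arrays left of sham arrays and the group mean as a bar. On the injected side at day 7, 1 kainic acid array (replicate 8) lies apart from the other 7, at 8.56 for Gusb and 9.86 for Grn.

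**Figure D2:**
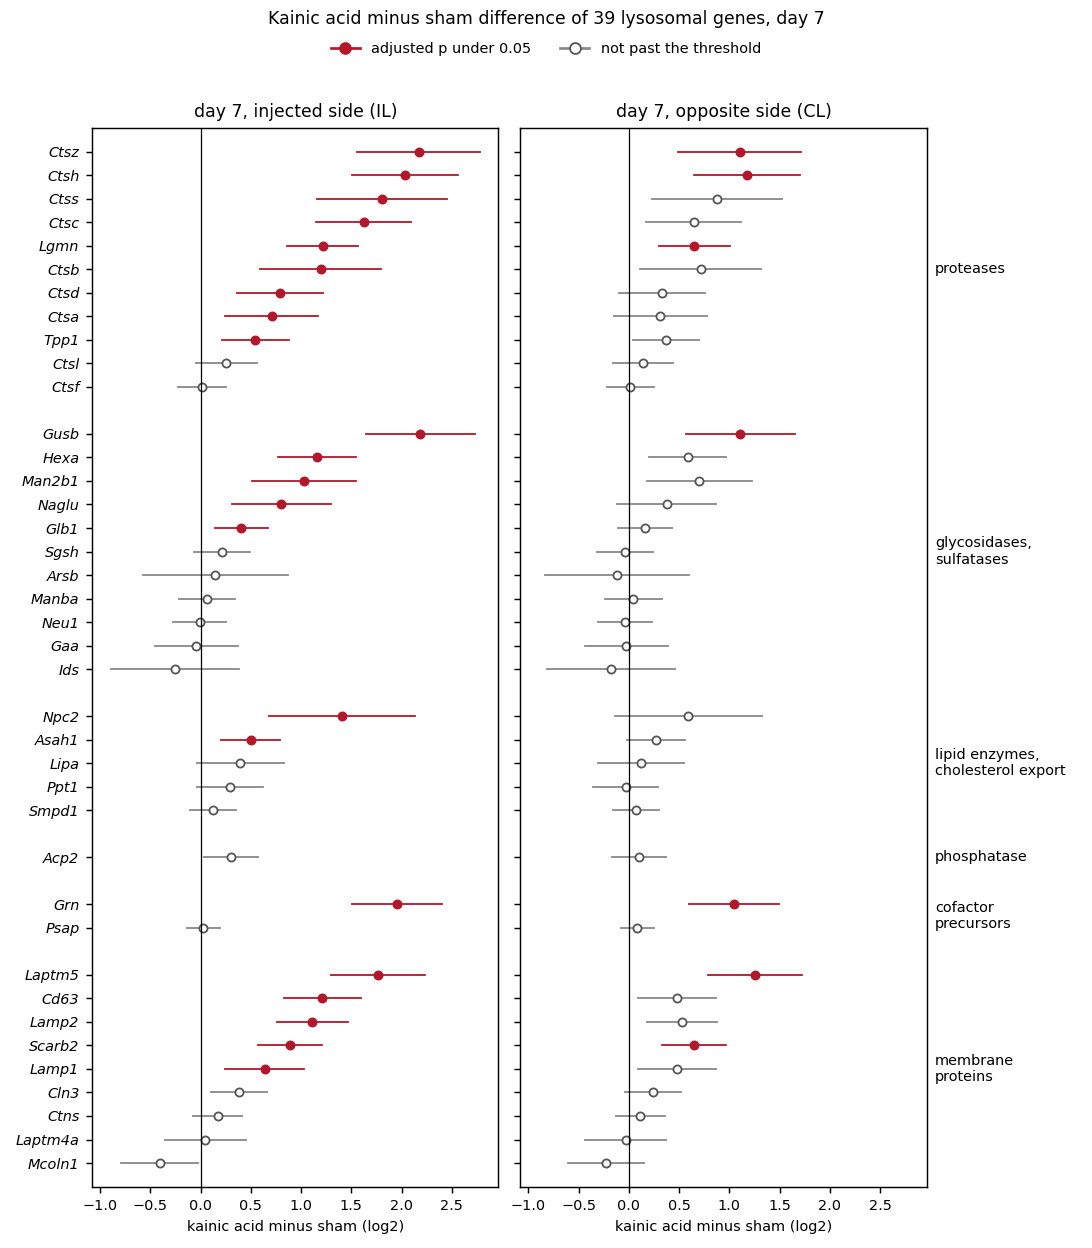
Kainic acid minus sham log2 difference of the 39 tested genes at day 7 with 95% confidence intervals, grouped by role, on the injected side (left) and the opposite side (right). Filled points passed the threshold, 22 on the injected and 7 on the opposite side.

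Since many of these genes are known targets of the transcription factor TFEB in cultured human cells, and 22 of the 39 tested rose together on the injected side at day 7, the promoters of the set were read for the E-box core that TFEB and related factors bind. RefSeq windows on GRCm38.p6, from 250 bases before to 50 bases after each start, were found for 38 of the 42 listed genes. Ctsb, Ctsh, Asah1 and Npc1 had no entry. The core CACGTG, which reads the same on both strands, was found for 13 of 38 genes (34.2%), against 8.09% of 27025 genes and 7.15% of 32851 windows. The longer form TCACGTGA, which contains the core, was found for 5 of 38 (13.2%), against 1.12% of genes and 0.974% of windows. Of the tested genes with a window, the core was present for 6 of 19 called at day 7 on the injected side and for 6 of 17 not called. The 7 genes with the largest differences among them, Gusb, Ctsz, Grn, Ctss, Laptm5, Ctsc and Npc2, had none. A match is a description of these letters, not a binding site or a cause. The windows of 4 members are shown because they span this range: Gusb rose most and has no core, Lamp1 has 4 cores, Ctsd rose and has the longer form, and Mcoln1 has the longer form and was not called. Each is printed along its gene's own strand, with every core, or the whole longer form, in capitals. They lie at chr5:130003000-130003299 (minus strand), chr8:13158911-13159210 (plus), chr7:142387778-142388077 (minus) and chr8:3500269-3500568 (plus). With the start site as position 1, the cores of Lamp1 begin at -61, -45, -28 and -15, those of Ctsd at -245 and -98 and those of Mcoln1 at -71 and -45.
Gusb: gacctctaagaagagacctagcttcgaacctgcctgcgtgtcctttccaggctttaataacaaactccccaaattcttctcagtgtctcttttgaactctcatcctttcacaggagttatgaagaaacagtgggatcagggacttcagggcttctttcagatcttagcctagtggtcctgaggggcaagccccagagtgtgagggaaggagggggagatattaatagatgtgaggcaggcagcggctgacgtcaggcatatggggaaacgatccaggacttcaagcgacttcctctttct
Lamp1: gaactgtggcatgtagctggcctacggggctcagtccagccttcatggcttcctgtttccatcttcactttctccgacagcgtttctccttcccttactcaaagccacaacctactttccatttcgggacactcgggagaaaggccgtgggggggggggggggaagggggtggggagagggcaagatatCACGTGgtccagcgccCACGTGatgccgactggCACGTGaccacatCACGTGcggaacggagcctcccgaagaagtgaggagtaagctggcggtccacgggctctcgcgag
Ctsd: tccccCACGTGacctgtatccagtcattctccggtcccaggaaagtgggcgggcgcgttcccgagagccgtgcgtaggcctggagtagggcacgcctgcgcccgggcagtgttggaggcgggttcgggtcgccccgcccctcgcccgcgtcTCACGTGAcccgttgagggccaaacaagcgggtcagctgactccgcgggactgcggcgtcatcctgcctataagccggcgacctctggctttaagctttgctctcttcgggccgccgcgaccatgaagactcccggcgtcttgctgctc
Mcoln1: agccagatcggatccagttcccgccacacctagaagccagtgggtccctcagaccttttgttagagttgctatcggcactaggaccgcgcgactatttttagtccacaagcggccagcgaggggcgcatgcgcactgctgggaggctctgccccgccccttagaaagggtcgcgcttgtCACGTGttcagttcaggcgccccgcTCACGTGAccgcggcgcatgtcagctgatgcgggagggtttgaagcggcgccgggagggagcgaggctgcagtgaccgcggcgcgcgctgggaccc

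At day 28 fewer of these genes were called on the injected side. Of the 39 genes 10 rose and 0 fell, where 4.41% of all genes were called higher and 1.42% lower. The median difference was 0.25, against -0.03 over all genes, with 33 of 39 positive. The largest rises were those of Ctsz (1.14 ± 0.28, adjusted p = 0.00584), Laptm5 (1.06 ± 0.21, adjusted p = 0.000425) and Ctsh (1.06 ± 0.24, adjusted p = 0.00256). The next were Ctsa (0.99 ± 0.21), Ctsb (0.93 ± 0.28) and Grn (0.74 ± 0.20), with adjusted p = 0.00111, 0.0286 and 0.0192. The 3 other kept probes of Ctsa gave 0.12, 0.07 and 0.26, and the mean of its probes 0.36. Hexa, Scarb2, Cln3 and Ppt1 made up the 10, between 0.41 and 0.57. Cln3 and Ppt1 were the 2 genes called at day 28 but not at day 7. The count rested in part on 2 KA arrays of day 28: it was 4 (Ctsa, Ctsh, Ctsz and Laptm5) without replicate 1 and 6 without replicate 8. Without replicate 1 the difference of Grn was 0.64 and not called. Hexa, Scarb2, Cln3 and Ppt1 lost their calls when 1 of 6, 4, 7 and 10 arrays was left out. Without the 2 slides of lowest detection 8 genes were called, but 6 of the 10 lost their calls: Ctsa (0.73), Ctsb (0.53), Hexa (0.63), Grn (0.73), Ppt1 (0.42) and Cln3 (0.21). Without IL sham replicate 5, the array apart in neuron markers, the count was 8, but Ctsb, Hexa, Cln3 and Ppt1 lost their calls. Those 8 therefore include genes that are not among the 10. Within the 2 slides that held both groups the medians were 0.57 and 0.32.

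Single arrays show how the groups lay on the injected side at day 28. Laptm5 ran from 11.85 to 13.21 (median 12.40) on the 9 KA arrays, against 11.22, 11.29, 11.29, 11.35 and 11.70 on the 5 sham arrays, with all 9 above every sham array. Grn ran from 10.40 to 11.42 (median 10.57), against 9.87, 9.93, 9.94, 9.94 and 9.95, again with no overlap. Ctsb, in contrast, ran from 11.60 to 12.70 (median 12.43), against 8.86, 11.62, 11.88, 11.90 and 12.53. Its KA arrays overlapped with all but 1 of the sham arrays, and without that array, sham replicate 5, the difference was 0.30 and not called. Ctsa ran from 7.67 to 8.45 (median 7.83), against 5.92, 7.05, 7.06, 7.09 and 7.48, and the 9 KA arrays lay above every sham array. Gusb, the gene with the largest difference at day 7, ran from 9.21 to 10.37 (median 9.45), against 8.52, 8.53, 8.62, 8.92 and 9.54. Its groups overlapped through 1 sham array at 9.54, and its difference of 0.73 ± 0.25 was not called (adjusted p = 0.0636). The 2 other kept probes of Gusb parted at this day, with 1.10 and 0.22.

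At day 60, 2 of the 39 genes rose on the injected side and 0 fell, where 3.36% of all genes were called higher and 1.29% lower. The share of these genes called, near that of all genes, is no result about them, while 37 of 39 differences were positive (47.9% of all genes) with a median of 0.29. Without the 2 slides of lowest detection 31 of 39 were positive with a median of 0.18, and with array weights 33 with a median of 0.18. Ctsh ran from 8.62 to 10.37 (median 8.96) on the 9 KA arrays, against 7.97, 8.17, 8.17, 8.26 and 8.50 on the 5 sham arrays, and all 9 lay above every sham array. It was the only gene of the set called on all 3 days on this side, with 0.97 ± 0.24 at day 60 (adjusted p = 0.00676). Without the 2 slides of lowest detection its day 60 difference was 0.76 and not called (adjusted p = 0.0838). Ctsc rose by 0.73 ± 0.22 (adjusted p = 0.0312), a call lost under 11 of 26 settings, 8 of them with 1 array left out. Its 9 KA arrays, from 7.96 to 8.72 (median 8.48), lay above the 5 sham arrays at 7.37, 7.49, 7.53, 7.68 and 7.90. Gusb (0.77 ± 0.25, adjusted p = 0.054) and Cd63 (0.54 ± 0.18, adjusted p = 0.0597) came next and were not called. The 2 other kept probes of Gusb gave 0.27 and -0.03. Leaving out KA replicate 1, 5, 6 or 7 or sham replicate 5 gave 1 called gene, and leaving out KA replicate 4 or 9 gave 4. Within the 4 slides that held both groups the medians were 0.28, 0.11, 0.27 and 0.59.

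The change of the KA effect over time was tested as a difference of differences on the injected side. From day 7 to day 60 the effect fell for 5 genes and rose for 1, where 1.24% of all genes were called lower and 0.413% higher. It changed by -1.78 ± 0.41 for Ctsz, -1.60 ± 0.30 for Grn, -1.41 ± 0.37 for Gusb and -1.23 ± 0.32 for Laptm5 (adjusted p = 0.0091, 0.000941, 0.024 and 0.0212). The last was Lgmn, with a change of -0.87 ± 0.24 (adjusted p = 0.0355). The other kept probe of Ctsz had differences of 2.15 at day 7 and 0.81 at day 60, against 2.17 and 0.39 for the chosen one. Of all 39 tested genes 30 had a smaller difference at day 60 than at day 7, where 47.2% of all genes did. Mcoln1 went the other way, with 0.90 ± 0.26 (adjusted p = 0.0488). Its differences were -0.41 ± 0.19, -0.23 ± 0.17 and 0.49 ± 0.17 at days 7, 28 and 60, none of them called, and the change was lost under 27 of 38 settings. One sham array of day 60, replicate 5, stood at 4.86 while the other 4 lay between 6.34 and 7.11, and without it the change was 0.55. The change of Lgmn was lost when 1 of 13 arrays was left out, that of Gusb without sham replicate 2 or 4 of day 7 or 2 of day 60 (-1.39 to -1.27) and that of Laptm5 without sham replicate 4 of day 7 (-1.14). Between days 28 and 7 limma called 0 genes (0 higher and 13 lower at an unadjusted p under 0.05), where 0.0879% and 0.176% of all genes were called higher and lower. Between days 60 and 28 it called 0 (2 higher and 2 lower unadjusted), with 0% of all genes higher and 0% lower. Without the KA animal of day 7 named above, 7 genes had a smaller effect at day 28 than at day 7 (Ctsc, Ctsh, Gusb, Lamp2, Grn, Lgmn and Cd63), where 1.51% of all genes were then called lower, and 11 had a smaller and 1 a larger effect at day 60 than at day 7, where 2.78% were called lower and 0.615% higher. Leaving out IL sham replicate 4 or 2 of day 7 instead reduced the 6 calls to 2 and 3. Leaving out IL KA replicate 1, IL sham replicate 1 or IL KA replicate 8 of day 28 gave 4, 4 and 2 genes with a smaller effect at day 28.

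**Figure D3:**
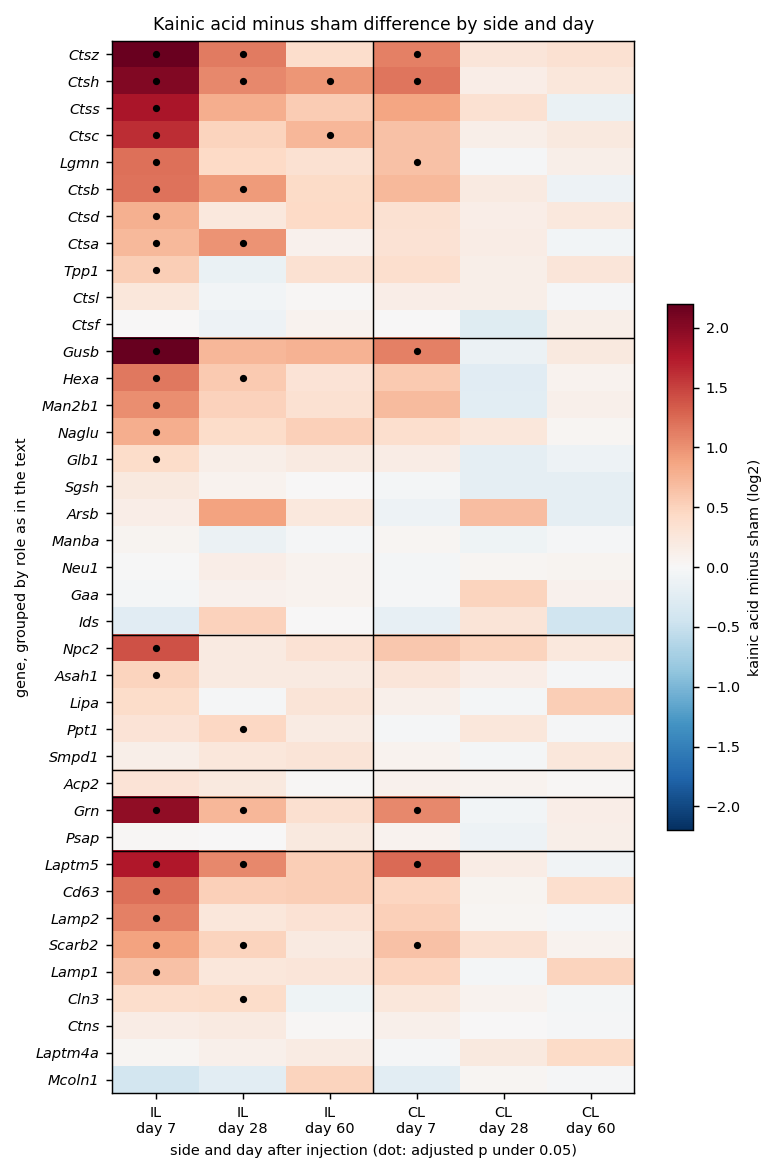
Kainic acid minus sham log2 difference of the 39 genes, in rows grouped by role, on each side and day in columns, with red for higher and blue for lower after kainic acid. Dots mark adjusted p under 0.05: 22, 10 and 2 genes on the injected side at days 7, 28 and 60, and 7, 0 and 0 on the opposite side.

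The opposite hippocampus, which received no injection, was compared between KA and sham animals in the same way. At day 7, 7 of the 39 genes rose there and 0 fell, where 1.49% of all genes were called higher and 0.0439% lower. The median difference was 0.31, against -0.02 over all genes, with 31 of 39 positive, and all 7 genes were also called on the injected side. Laptm5 ran from 10.99 to 12.90 (median 12.25) on the 8 CL KA arrays, against 10.82, 10.88, 10.93 and 11.25 on the 4 CL sham arrays, and the lowest KA array, replicate 7, fell among the sham arrays. Its difference was 1.25 ± 0.23 (adjusted p = 0.000436). Ctsh ran from 8.79 to 10.46 (median 9.65), against 8.17, 8.50, 8.55 and 8.78 (difference 1.18 ± 0.26, adjusted p = 0.00466), and Grn from 9.99 to 11.75 (median 10.77), against 9.79, 9.84, 9.88 and 9.89 (difference 1.05 ± 0.22, adjusted p = 0.00246). Neither overlapped with sham, although the lowest KA array of both, replicate 7, lay close to the sham arrays. The call of Ctsh was lost without CL sham replicate 4 (1.06).

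The other 4 genes called on the opposite side were Gusb, Ctsz, Lgmn and Scarb2. Gusb ran from 8.51 to 10.74 (median 9.58) on the KA arrays, against 8.30, 8.49, 8.73 and 8.76 on the sham arrays, and Ctsz from 7.01 to 9.51 (median 7.995), against 6.70, 6.71, 7.11 and 7.47. Above every sham array lay 7 of 8 KA arrays for Gusb and 5 of 8 for Ctsz. Their differences were 1.11 ± 0.27 and 1.10 ± 0.31 (adjusted p = 0.0131 and 0.0402). The 2 other kept probes of Gusb gave 0.74 and 0.47, and its call was lost with the mean of the kept probes. The other kept probe of Ctsz gave 1.28. Lgmn ran from 11.07 to 11.92 (median 11.45), against 10.54, 10.76, 10.93 and 10.93, and Scarb2 from 7.06 to 8.21 (median 7.67), against 6.84, 7.01, 7.12 and 7.32. All 8 KA arrays for Lgmn and 7 of 8 for Scarb2 lay above every sham array. The differences were 0.65 ± 0.18 and 0.65 ± 0.16 (adjusted p = 0.0337 and 0.0154). Ctss, with 0.87 ± 0.33, was not called (adjusted p = 0.261). The count was 3 without CL KA replicate 8 (Ctsh, Laptm5 and Grn), 4 without KA replicate 2 or 4 or any 1 of the 4 sham arrays, and 2 with median scaling in place of quantiles. Without the KA animal named above it was 8, with Hexa added, where 2.28% of all genes were then called higher. Within the 2 slides that held both groups the medians were 0.02 and 0.38, with all 7 called genes higher in both.

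At the later days limma called none of the 39 genes on the opposite side. At an unadjusted p under 0.05 there were 3 higher and 1 lower at day 28 and 5 higher and 0 lower at day 60. Of all genes 0.0264% were called higher and 0.0615% lower at day 28, and 0.0527% higher and 0.00879% lower at day 60. The medians were 0.08 and 0.07, with within-slide medians of 0.18 and 0.03 at day 28 and of 0.08 and -0.03 at day 60. The levels of Grn show how near the groups lay: 9.78 to 10.02 (median 9.87) on the 9 CL KA arrays of day 28, against 9.71, 9.90, 9.96, 10.004 and 10.10 on the 5 CL sham arrays. For Gusb the KA arrays of that day ran from 8.45 to 8.80 (median 8.69), against 8.68, 8.74, 8.85, 8.85 and 8.86.

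Whether the KA effect differed between the sides was tested directly. At day 7 the IL effect was larger than the CL effect for 35 of 39 genes, where 46.5% of all genes had a larger IL effect, yet limma called 0 of the 39 (10 higher and 0 lower at an unadjusted p under 0.05), where 0.0264% of all genes were called higher and 0% lower. The largest differences between the effects were those of Gusb (1.08 ± 0.37) and Ctsz (1.06 ± 0.42). Without the KA animal named above, 4 genes were called, where 0.571% of all genes were then called higher: Ctsc (1.22 ± 0.27, adjusted p = 0.0122), Gusb (1.21 ± 0.29, adjusted p = 0.0231), Grn (1.06 ± 0.22, adjusted p = 0.00335) and Cd63 (0.93 ± 0.23, adjusted p = 0.0359). At days 28 and 60 limma called 0 genes (11 and 3 higher unadjusted, 0 lower), where 0.887% and 0.518% of all genes were called higher and 0.132% lower on both days.

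Within KA animals the injected side was set against the opposite side of the same mice. At day 7, 14 of 39 genes were higher on the injected side and 0 lower, where 3.37% of all genes were called higher and 1.04% lower. Ctsz (1.19 ± 0.24), Npc2 (1.13 ± 0.29), Ctss (1.09 ± 0.26) and Grn (0.98 ± 0.18) led (adjusted p = 0.000662, 0.00868, 0.00397 and 0.000127). The call of Npc2 was lost without CL KA replicate 1 (0.94). Without the KA animal named above 16 genes were called, with Ctsa and Glb1 added, where 4.78% of all genes were then called higher. At day 28 it was 10 and 0, where 3.65% and 0.536% of all genes were called, led by Laptm5 (0.93 ± 0.17), Ctsz (0.92 ± 0.23), Gusb (0.89 ± 0.20) and Ctsh (0.85 ± 0.20), with adjusted p = 0.000103, 0.00553, 0.00202 and 0.00253. At day 60 Laptm5 alone was called (0.73 ± 0.17, adjusted p = 0.00493), where 2.62% of all genes were called higher and 1.37% lower. Without the 2 slides of lowest detection it was at 0.45 and not called (adjusted p = 0.193). In sham animals, over all days, limma called 0 genes between the sides (1 higher and 1 lower unadjusted), where 0% of all genes were called in either direction. These comparisons share the KA arrays with those against sham and are no separate evidence.

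Other genes of the lysosomal pathway were read from 5 lists of 27, 26, 19, 20 and 17 genes, of which 17, 23, 17, 19 and 10 were tested. On the injected side at day 7, 2 of 17 other lysosomal enzymes and cofactors rose and 0 fell: Ifi30, a thiol reductase of antigen processing (1.67 ± 0.29), and Dnase2a, the acid nuclease (0.85 ± 0.21). Of 23 other membrane proteins 2 rose and 0 fell, the peptide transporter gene Slc15a3 (2.78 ± 0.37) and the sialomucin gene Cd164 (0.50 ± 0.17). Of 17 subunits of the proton pump that acidifies the lumen 2 rose and 0 fell, Atp6v0e (0.74 ± 0.17) and Atp6v0a2 (0.69 ± 0.16), and the median of the 17 was -0.10. Of 19 genes of sorting to lysosomes 0 rose and Vps41, a subunit of the tethering complex of late endosomes, fell (-0.53 ± 0.16). Of 10 genes of lysosomal transcription control and nutrient signalling 0 were called, with a median of 0.02. The medians of these 5 lists were 0.26, -0.04, -0.10, -0.06 and 0.02, against -0.04 over all genes. The share called higher among all genes, given above, was 7.45%. The call of Cd164 was lost when 1 of 7 arrays was left out (its values without 1 array ran from 0.46 to 0.59), and that of Vps41 without sham replicate 1 or 4.

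Protease inhibitors of the cathepsins and related enzymes were measured beside them. Of 5 tested inhibitors, Cst7, cystatin F, which blocks cathepsins C and L-type enzymes in immune cells, and Serpina3n, a secreted inhibitor of serine proteases, rose on the injected side on all 3 days and 0 fell. Of all genes 7.45%, 4.41% and 3.36% were called higher there at days 7, 28 and 60. Cst7 differed by 3.28 ± 0.44, 3.50 ± 0.40 and 1.34 ± 0.40 at days 7, 28 and 60 (adjusted p = 2.65e-08, 2.1e-09 and 0.0328), and by 2.11 ± 0.44 on the opposite side at day 7 (adjusted p = 0.00186). Its level on IL sham replicate 5 of day 28 was 4.51, about as low as that of the dim member Sgsh. The size of its difference at that day is therefore uncertain. Serpina3n differed by 2.75 ± 0.35, 2.47 ± 0.32 and 2.32 ± 0.32, and by 1.80 ± 0.35 on the opposite side at day 7. The call of Cst7 at day 60 was lost when 1 of 8 arrays was left out.

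At day 28, on the injected side, 1 of 17 other enzymes, 2 of 23 other membrane proteins and 1 of 17 pump subunits were called higher. So were 1 of 19 sorting genes and 1 of 10 genes of transcription control and nutrient signalling, and 0 were lower. Of all genes 4.41% were called higher and 1.42% lower. Counts of 1 of 17 or 1 of 19 are near that share and are no result about these lists. Slc15a3 (1.89 ± 0.34) was called with any 1 array left out. The channel gene Tpcn2 (0.46 ± 0.12) lost its call without sham replicate 4 (0.30), and Dnase2a (0.63 ± 0.19) when 1 of 8 arrays was left out. Their lowest sham levels, 4.46 and 4.68, were similarly low, so the sizes of their differences are uncertain. The calls of the pump subunit gene Atp6v0d1, the adaptor gene Ap1b1 and Flcn, a regulator of nutrient signalling, rested on IL sham replicate 5, where their levels were 5.82, 7.37 and 4.45 and the lowest of the other 4 sham arrays had 12.18, 11.51 and 10.04. Their differences were 1.22 ± 0.39, 0.97 ± 0.28 and 1.23 ± 0.37 with this array and -0.08, 0.08 and 0.07 without it. At day 60 the phospholipase gene Pla2g15 was called (0.80 ± 0.21), but not without sham replicate 5 (0.29). On the opposite side at day 7 Slc15a3 was called (1.72 ± 0.37).

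Markers of other cell types were read on the same arrays, because several members are known to be high in microglia. All 14 tested microglia markers rose on the injected side at day 7, with a median difference of 1.74, and 10, 3 and 8 of 14 rose on the injected side at days 28 and 60 and on the opposite side at day 7. Of all genes 7.45%, 4.41%, 3.36% and 1.49% were called higher in these comparisons, in the same order. The mean level of the 14 markers relative to all arrays ran from -0.13 to 2.07 on IL KA arrays of day 7, against -0.67 to -0.23 on IL sham arrays, from 0.20 to 1.47 against -0.56 to -0.41 at day 28, and from -0.42 to 0.59 against -0.69 to -0.29 at day 60. On the opposite side at day 7 it ran from -0.56 to 1.31 on KA arrays, against -0.67 to -0.42 on sham arrays. The 7 tested of 8 members known to be high in microglia (Ctss, Laptm5, Ctsc, Ctsh, Ctsz, Lgmn and Grn) were all called at day 7 on the injected side, with a median of 1.80, and 4, 2 and 5 of 7 were called in the other 3 comparisons. The part of the marker changes in the lysosomal differences was not tested.

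Markers of further cell types were read in the same way. On the injected side at day 7, 7.45% of all genes were called higher and 3.03% lower. Of 5 tested markers of infiltrating macrophages and monocytes, Lyz2 (3.43 ± 0.41) and Ms4a7 (2.53 ± 0.31) rose on the injected side at day 7, and 0 of 5 tested markers of neutrophils and lymphocytes were called. Both arrays of 1 other KA animal of day 7 stood apart in these 5 markers, IL replicate 4 at 1.68 and CL replicate 5 at 1.72 relative to all arrays, where the other arrays of their groups reached at most 0.41 and 0.48. With each of them left out, 22 members were called on the injected and 6 on the opposite side at day 7. Of 8 astrocyte markers 4 rose, among them Gfap, the intermediate filament of astrocytes (2.44 ± 0.37). Of 8 neuron markers and 7 oligodendrocyte markers 0 were called, and 1 of 7 hippocampal principal cell markers, Mpped1, fell (-0.56 ± 0.17), a call lost without sham replicate 3. Choroid plexus markers had a median of -0.81 with 0 of 5 called, and 0 of 6 endothelial and 0 of 3 red blood cell markers were called.

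**Figure D4:**
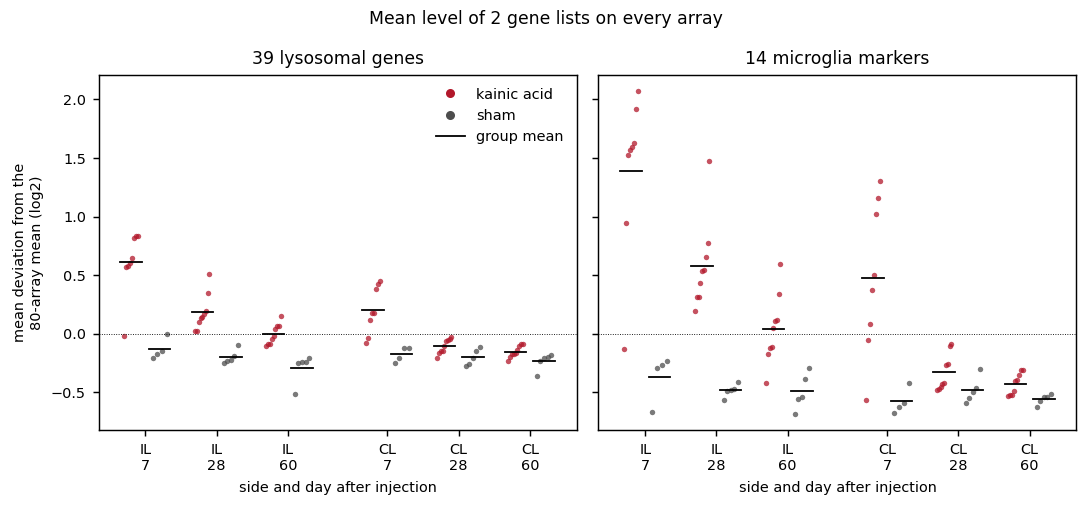
Mean deviation in log2 units of the 39 lysosomal genes (left) and of 14 microglia markers (right) from their means over the 80 arrays, 1 point per array, with kainic acid left of sham and the group mean as a bar. On the injected side at day 7 the lysosomal genes lay between -0.02 and 0.84 on kainic acid arrays and between -0.20 and -0.01 on sham arrays.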

How the data were processed

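Per the labels, RNA of hippocampus kept in RNAlater was labelled with biotin and read on 80 arrays. The deposited table gives an intensity per probe with a detection p-value, per the file headers. Its values fall below 0 on some probes and differ in median between arrays, so they appear background-subtracted and not scaled. In the authors' series matrix, also deposited, log2 values have 1 common distribution on all arrays, as quantile normalization gives. Per the submitters' processing notes BeadStudio, GenomeStudio and Partek were used, with versions not given in the sources used here. Of 25697 data lines 4453, whose columns are shifted against the header, were left out. In 1 array the detection column was moved by 1 line. Probe names come from the platform annotation (19889 probes with 1 symbol, 0 with several, 1355 with none).

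Intensities were corrected and quantile normalized with neqc (limma 3.58.1, statmod 1.5.0, R 4.3.3, offset 16). The 16646 probes detected at p under 0.05 on at least 4 arrays were kept. The probe with the highest mean series matrix value stood for each of 11381 genes. No called member lacked detection throughout a group, so no fold is a bound. The limma model had a mean for each of 12 groups, treated the animal as random (duplicateCorrelation, consensus 0.0788) and gave 16 contrasts, two-sided tests and Benjamini-Hochberg adjustment per contrast. Within a group each array is of a different animal, and each animal gave 2 arrays, from its 2 hemispheres. The number of animals limits the precision. Slides (11) were tested as blocks and within slides.

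Members and lists were chosen with earlier results of these data known. Singled-out members are up to 6 largest calls per direction in each KA comparison, up to 4 elsewhere and per other list. Array values are given for the 6 largest at day 7 on the injected side and for members called on the opposite side. Replicate numbers did not pair KA and sham arrays: correlations of same-numbered deviations ran from -0.476 to 0.301 at day 7 on the injected side, and no comparison had every pair over 0.1. On simulated arrays of day 7, injected side, the fit recovered 38.8%, 79.1% and 97.0% of genes changed 1.5-fold, 2-fold and 3-fold. The simulation changed 200 of 11381 genes and used normal noise of the same spread in every group, without arrays apart. Recovery in the real arrays can therefore differ. Series text that counts the day 60 sham groups as KA was overruled by the sample labels. Tables were read and plots drawn in Python 3.11.15 with pandas 2.3.3, matplotlib 3.10.9 and numpy 2.4.6. Alternatives covered background correction, scaling, filters, probe choice, blocks, array weights and each array left out.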

Additional observations from a re-analysis of the deposited data

Results flagged for a closer look

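For the 8 members shown array by array, 15 of 96 groups held 1 array apart from the rest by Dixon's criterion at the 95% level, where chance flags about 1 in 20. Over all 39 members it was 78 of 468. In 5 of the 15 the array was IL KA replicate 8 of day 7, the lowest of its group: Ctsh at 8.83 (next 10.59), Gusb at 8.56 (next 10.62), Laptm5 at 11.72 (next 12.88), Grn at 9.86 (next 11.79) and Lgmn at 10.90 (next 12.16). The same array was lowest of its group in the microglia markers (-0.13), as was the other array of that animal on the opposite side (-0.56). No label sets this animal apart.

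The other arrays apart were spread over groups. On the injected side of KA animals, Lgmn was high at 11.94 on replicate 1 of day 28 and at 11.95 on replicate 7 of day 60, on which Scarb2 was low at 6.94. On the opposite side, replicate 3 of day 60 was low for Laptm5 (9.85) and high for Grn (10.58). Among IL sham arrays, replicate 2 of day 7 was high for Ctss (6.45) and Scarb2 (7.73), replicate 4 of day 28 high for Laptm5 (11.70), and replicate 5 low for Grn at 9.87 on day 28 and at 9.09 on day 60.

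The KA effect on the injected side differed between days 60 and 7, by the test of the difference itself, for 6 members. It was smaller at day 60 by -1.78 for Ctsz, -1.60 for Grn, -1.41 for Gusb, -1.23 for Laptm5 and -0.87 for Lgmn, and larger by 0.90 for Mcoln1.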

How the results depend on the processing

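Of 72 called member values 37 were called under every setting applied to single members, 35 lost their call in at least 1, and 0 changed sign. Animal as a fixed block was read for counts only and is not among these settings. On the injected side at day 7 the 22 calls became 16 to 27 under the alternatives and 16 to 23 with 1 array left out, and 14 members were called throughout. Among all genes tested, 779 to 3152 were called under the alternatives, against 848 higher and 345 lower in the main fit. Array weights (0.0775 to 2.31) gave 18 calls at day 28 and 4 at day 60 on the injected side, 16 at day 7 on the opposite side, 9 and 7 for the difference between sides at days 7 and 28, 23 and 2 for IL against CL in KA animals at days 7 and 60, and 12 and 18 for the changes from day 7 to days 28 and 60. Of all genes the weights called 1082 and 932 at days 28 and 60 on the injected side and 651 at day 7 on the opposite side. The main fit called fewer in each, at day 7 on the opposite side 170 higher and 5 lower. The larger member counts there are therefore no result about these genes alone. For the other comparisons with weights, counts among all genes are not given here. Median scaling gave 1 call at day 60 on the injected side, 2 at day 7 on the opposite side, 2 for the difference between sides at day 28 and 2 for the change from day 7 to 60. Of all genes it called 258 at day 60 on the injected side, fewer than the main fit, and also fewer at day 7 on the opposite side. Median scaling moved the median of all genes to -0.10 at day 7 on the injected side, where the members' median was 0.49. The cause was not tested. The replicate block, which pairs by number only, gave 20, 11 and 4 calls on the injected side and 6 on the opposite side at day 7. Of all genes it called 1163, 906, 550 and 202 in these comparisons. Slide as a block gave 5 at day 60 on the injected side and 4 at day 7 on the opposite side, where it called 803 and 116 of all genes. Animal as a fixed block gave 3 for the difference between sides at day 28 and 2 for IL against CL at day 60. The mean of the kept probes gave 1 for the change from day 7 to 28, and leaving out the 2 dimmest slides, with 11 arrays, gave 10 for the change to day 60. Leaving out 1 array gave 4 to 11 calls at day 28 and 1 to 4 at day 60 on the injected side, 3 to 8 at day 7 on the opposite side, 0 to 4 and 0 to 1 for the difference between sides at days 7 and 28 (1 without IL KA replicate 7 of day 28), 0 to 7 for the change from day 7 to 28 and 2 to 12 for that to day 60. Without both arrays of 1 KA animal of day 7, a choice made after seeing the data, these last counts were 4 for the difference between sides at day 7 and 7 and 12 for the changes. Ctsl and Sgsh lay near background on most arrays, which limits what their values can show.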
